A study of Bos taurus with 10 samples.

Results

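Cytochrome c oxidase, complex IV of the mitochondrial respiratory chain, was described here through the genes of 9 nuclear-encoded subunits in a back muscle, longissimus dorsi, from 10 Hanwoo, the native cattle of Korea. The muscle isoforms were COX6A2 and COX7A1, and the ubiquitous subunits were COX4I1, COX5A, COX5B, COX6B1, COX6C, COX7B and COX7C. Members were the genes whose symbol stood alone on a probe set of the platform annotation, which gave 7 of the 9, with 8 probe sets, among 9155 named genes. The other 2 were on the array under older symbols and were identified by the RefSeq accession of their probe set: IHQ is COX7B and LOC338087 is COX6B1. They are described beside the 7 and were not used in any score. All 9 were among the 6271 genes bright enough to be tested.

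The 10 samples form 1 group with no treatment, each measured on its own GeneChip Bovine Genome Array with biotin-labelled poly(A) RNA. The label of 1 sample gives an age of about 2 years, and no sex is given. That each sample is a different animal is taken from its number. The p-values are for covariation across samples with a measure taken from the same arrays, and 10 arrays limit their precision. The series was made to relate expression to traits of the beef; these were not analysed here, and the data are described by level, by spread between animals and by covariation.

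Complex IV passes electrons from cytochrome c to oxygen and pumps protons, and its catalytic core is encoded by mitochondrial DNA. Nuclear-encoded subunits surround that core and take part in its assembly, stability and regulation. Skeletal muscle and heart of adult mammals carry tissue-specific isoforms of subunits 6A, 7A and, in cattle, 8, where most other tissues carry the liver isoforms. The mitochondrially encoded core subunits were not analysed here.

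Levels are log2(signal + 16) after quantile normalization, which gives every array the same distribution. They are compared between animals for 1 gene and not between genes, because probe sets differ in brightness. Animal 5 stood apart before any subunit was considered. For the spiked-in poly(A) transcripts, the excess of 3' over 5' probe set signal, a measure of how completely labelled RNA covers a transcript, was 2.67 on the log2 scale in animal 5, against 0.78 to 1.06 in the other 9. This excess for the muscle's own GAPDH was 0.70 in animal 5, against -0.29 to 0.17, while that for actin was -0.17, against -0.36 to -0.05. Results are therefore given with and without this animal. Muscle identity was checked with 9 measured marker genes, whose median level was 15.64. Their values in animal 5 differed from the mean of the others by -0.17 to 0.12, with 1 of the 9 below the others' range. These differences were taken after quantile normalization, which gives the brightest ranks the same values on every array. Of the heart markers, NPPA and TNNI3 were measured and neither was bright enough to be tested.

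COX6A2, the muscle isoform of subunit 6A, was far lower in animal 5 than in any other animal. It stood at 10.67 in animal 5. In the other 9 it was lowest in animal 3 at 12.49, had a median of 12.79 and was highest in animal 1 at 13.44. In deposited intensities this was 1660.1 in animal 5, against 5669 to 12025 in the others. The difference from the mean of the other 9 was -2.19 on the log2 scale, a level 4.56-fold lower, and animal 5 lay 1.82 below the lowest of them. Among those 9 animals COX6A2 spanned 0.96, or 1.94-fold.

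COX7A1, the muscle isoform of subunit 7A, did not follow COX6A2 into this low value. It was 14.54 in animal 5, inside the range of the other 9, which ran from 14.30 in animal 6 through a median of 14.48 to 14.66 in animal 1. The difference from their mean was 0.06 (-0.28 with the deposited scaling and -0.17 with median centring, so its sign depends on the scaling), and the 9 animals spanned 0.35, or 1.28-fold. Both isoforms were highest in animal 1. The muscle isoforms thus differed from each other in animal 5 by more than they did in any other animal: the deviation of COX6A2 from its mean less that of COX7A1 was -2.02 in animal 5, against -0.10 to 0.64 in the other 9.

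The ubiquitous subunits split in the same animal. COX6C, a small membrane-spanning subunit, was 13.46 in animal 5, where the other 9 ran from 14.75 to 15.03 with a median of 14.84. COX7C, another small membrane-spanning subunit, was 13.35 in animal 5, where the others ran from 14.40 to 14.81 with a median of 14.66. Neither gene's animal 5 value overlapped the other 9. With the mean of both COX6C probe sets, of which the dim one was not low in animal 5, the COX6C difference given next was -0.59.

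COX7B, a membrane-spanning subunit listed as IHQ, showed the lowest animal 5 value relative to the others, 12.51 against 14.46 to 15.13 with a median of 14.98. COX6B1, listed as LOC338087 and coding for a subunit on the intermembrane side of the complex, was 13.38 against 14.46 to 14.78 with a median of 14.57. The differences of animal 5 from the mean of the other 9 were -1.39 for COX6C, -1.28 for COX7C, -2.37 for COX7B and -1.21 for COX6B1, which are levels 2.62-fold, 2.42-fold, 5.18-fold and 2.31-fold lower.

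COX4I1, the largest of the nuclear-encoded subunits, was 14.24 in animal 5 and 14.47 to 14.67 in the others, also below their range, by 0.23. COX5A and COX5B, which lie on the matrix side of the complex, were not low there. COX5A was 14.76 in animal 5, inside a range of 14.43 to 14.88, and the zinc-binding subunit COX5B was 15.12, inside a range of 14.89 to 15.17. With the deposited scaling the animal 5 difference of COX4I1 was -0.62 in place of -0.31 and that of COX5A was -0.11 in place of 0.08. The plot of subunit levels by animal shows this split.

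**Figure D1:**
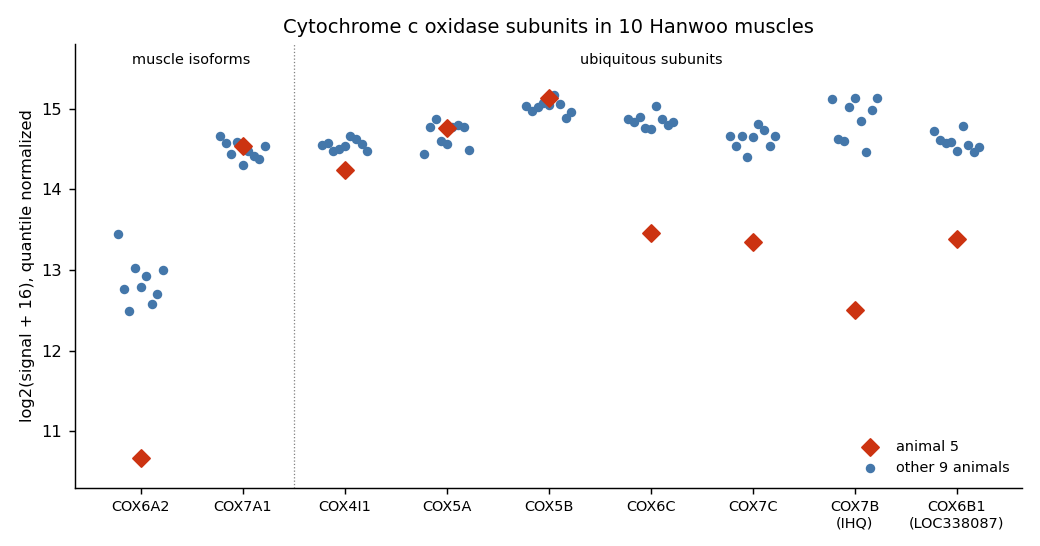
Level of each subunit, log2(signal + 16) after quantile normalization, in 10 animals; each point is 1 animal, the red diamond is animal 5 and blue points are the other 9. Animal 5 lies below the other 9 for COX6A2, COX4I1, COX6C, COX7C, COX7B and COX6B1 and inside their range for COX7A1, COX5A and COX5B; heights are not comparable between genes.

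Over all 9 subunits, animal 5 was below the range of the other animals for 6 (66.7%), and below it by more than 1 on the log2 scale for 5 (55.6%). Over all tested genes the same holds for 27.5% and 4.67%. No other animal was below the range for more than 1 of the 9 subunits, and none by more than 1 on the log2 scale for any. Since only 1 animal can be lowest for a gene, only the 3 subunits not low in animal 5 were open to them. With the deposited scaling the counts were 6 and 3. These are counts in a single animal with no test. They go with the 3' minus 5' values above, whose part in the result was not tested. In whole muscle, fewer cells of a type and less RNA per cell cannot be told apart.

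Without animal 5 and with quantile normalization, COX6A2 had an SD of 0.29 (n = 9), the widest of the 7 members, while COX7A1 had 0.11. With the deposited scaling the widest was COX5B at 0.33, against 0.32 for COX6A2. The SDs of the ubiquitous members were 0.15 for COX5A, 0.12 for COX7C, 0.083 for COX6C, 0.077 for COX5B and 0.063 for COX4I1. COX7B had 0.24 and COX6B1 0.10. The median SD of all tested genes in the same 9 animals was 0.31. Of the tested genes, 45% had a smaller SD than COX6A2 and 2.01% a smaller SD than COX7A1. Among the 200 genes closest in mean level these shares were 67.5% for COX6A2 and 17.5% for COX7A1, against 85.5% for COX7B, 45% for COX5A, 22% for COX7C, 11.5% for COX5B, 11% for COX6C, 10.5% for COX6B1 and 0.5% for COX4I1.

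With all 10 animals the SD was 0.74 for COX6A2 and 0.11 for COX7A1, against 0.45 for COX6C, 0.42 for COX7C, 0.15 for COX5A, 0.11 for COX4I1 and 0.083 for COX5B. COX7B had 0.79 and COX6B1 0.40. Among the 200 tested genes closest to it in mean level, COX6A2 had a larger SD than 95% and COX7A1 a larger one than 2.5%, with COX6C at 83.5% and COX5B at 7%. The muscle isoforms thus held the largest SD of the 7 members and the second smallest. The mean deviation of the muscle isoforms minus that of the 5 ubiquitous members was -0.46 in animal 5 and ran from -0.20 in animal 3 to 0.46 in animal 1 among the others.

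These SDs depend on the scaling. With the values as deposited, the arrays differed in the signal of all their brightest probe sets, and the mean of the 100 brightest ran from 14.66 to 15.81 on the log2 scale. On that scale the SD over 10 animals was 0.31 for COX5B, 0.27 for COX4I1 and 0.25 for COX7A1, each over 1.5 times the quantile normalized value, while COX6A2 stayed at 0.75 and COX5A at 0.16. The animal 5 differences of COX6A2, COX6C and COX7C were -2.16, -1.52 and -1.41 on that scale.

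**Figure D2:**
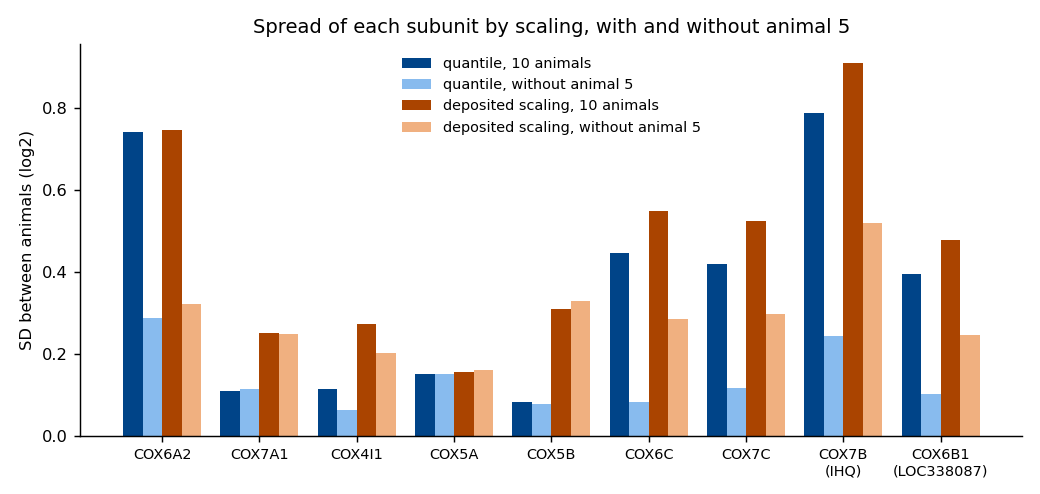
SD of each subunit between animals on the log2 scale, as bars from 0, for quantile normalized values (blue) and the deposited scaling (orange), over 10 animals (dark) and without animal 5 (light). Removing animal 5 shortens the bars of COX6A2, COX6C, COX7C, COX7B and COX6B1 most; COX5B, COX7A1 and COX4I1 vary more with the deposited scaling.

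Covariation with COX6A2 asked which genes moved with this isoform across animals. In limma, with the COX6A2 level in SD units as covariate, 675 of 6270 genes rose with it (10.8%) and 332 fell (5.3%) at an adjusted p below 0.05. Of the 8 other subunits 4 rose and 0 fell. They were COX7B, with a slope of 0.76 log2 per SD of COX6A2 (SE 0.07, limma adjusted p = 0.00016), COX6C at 0.41 (adjusted p = 0.000853), COX6B1 at 0.37 (adjusted p = 0.000581) and COX7C at 0.37 (adjusted p = 0.00226). COX4I1 had 0.09 (adjusted p = 0.177), COX7A1 0.01 (adjusted p = 0.904) and COX5A -0.07 (adjusted p = 0.399). COX4I1 passed with the deposited scaling, at a slope of 0.23 (limma adjusted p = 0.0483), and the slope of COX7A1 was then 0.16 (adjusted p = 0.198). COX6C did not pass with the mean of its probe sets (0.17, limma adjusted p = 0.507). Neither COX6C (0.16) nor COX7C (0.14) passed once the COX6A2 fit also held the poly(A) control difference, with limma adjusted p = 0.6 and 0.703. COX6A2 and that difference had r = -0.88 over the 10 animals, so a fit holding both cannot tell their parts apart. The calls on COX6A2 were not made without animal 5. Without it 0 of 6274 genes passed in limma, 543 had an unadjusted p below 0.05, a Spearman correlation per gene called 3, and the slopes of COX6C and COX7C were 0.0035 and -0.011. With 10 animals a Spearman correlation per gene also called 0 genes, with 587 at an unadjusted p below 0.05.

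COX4I1 as covariate passed with part of the same subunits. COX6C (0.40), COX7C (0.37) and COX6B1 (0.35) rose with it, each with limma adjusted p = 0.0387, so 3 of 8 subunits rose and 0 fell, among 67 of 6270 genes that rose (1.07%) and 15 that fell (0.239%). COX6A2 had a slope of 0.58 (adjusted p = 0.0533) and COX7B 0.59 (adjusted p = 0.059). COX6A2 passed with the deposited scaling (0.63, limma adjusted p = 0.0193), with median centring (0.60, adjusted p = 0.0248) and with a filter at the 75th percentile (adjusted p = 0.0403). COX6C and COX7C did not pass with the mean of probe sets (limma adjusted p = 0.279 and 0.0506), with no filter (0.0556 each) or without animal 1, 2 or 9. Without animal 5 limma called 0 of 6274 genes, with 216 at an unadjusted p below 0.05; a Spearman correlation per gene called 0. The count of 82 genes was 0 without animal 1, 2 or 9 as well, and 349 without animal 7.

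The poly(A) control difference, used as a covariate in the same way, marks which subunits moved with that array measure. COX6A2 (-0.65, limma adjusted p = 0.00117), COX6C (-0.43, adjusted p = 9.58e-05), COX7C (-0.39, adjusted p = 0.000474), COX7B (-0.72, adjusted p = 0.000197) and COX6B1 (-0.37, adjusted p = 0.000435) fell with it, 5 of 9 subunits, and 0 rose. Over all genes 748 of 6271 fell (11.9%) and 309 rose (4.93%). COX4I1, COX5A, COX5B and COX7A1 did not pass. With the mean of its probe sets COX6C did not pass either (-0.19, limma adjusted p = 0.444). Without animal 5 limma called 0 genes, with 296 at an unadjusted p below 0.05 and 0 by Spearman correlation, and the COX6A2 slope was 0.19. The 10-animal fits on COX6A2, COX4I1 and the control difference use the same arrays and are not independent of each other.

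In the 9 animals other than 5, the r of COX6A2 and COX7A1, given as a description, was 0.71 with quantile normalization, where COX6C and COX7C had the only higher value of the 21 pairs. It was 0.84 with the deposited scaling, below other pairs such as COX4I1 and COX5B at 0.98. With quantile normalization the limma slope of COX7A1 on COX6A2 was 0.08 per SD (adjusted p = 0.633). COX6C and COX7C had r = 0.75 with quantile normalization. COX5A ran against COX6A2 with r = -0.85, but r was 0.05 with the deposited scaling, so its direction depends on the scaling. Of 21 pairs of the 7 members, 15 had r above 0 in these 9 animals and 10 in all 10 animals. With the deposited scaling all 21 did in both, on arrays that differ in the signal of all bright probe sets.

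**Figure D3:**
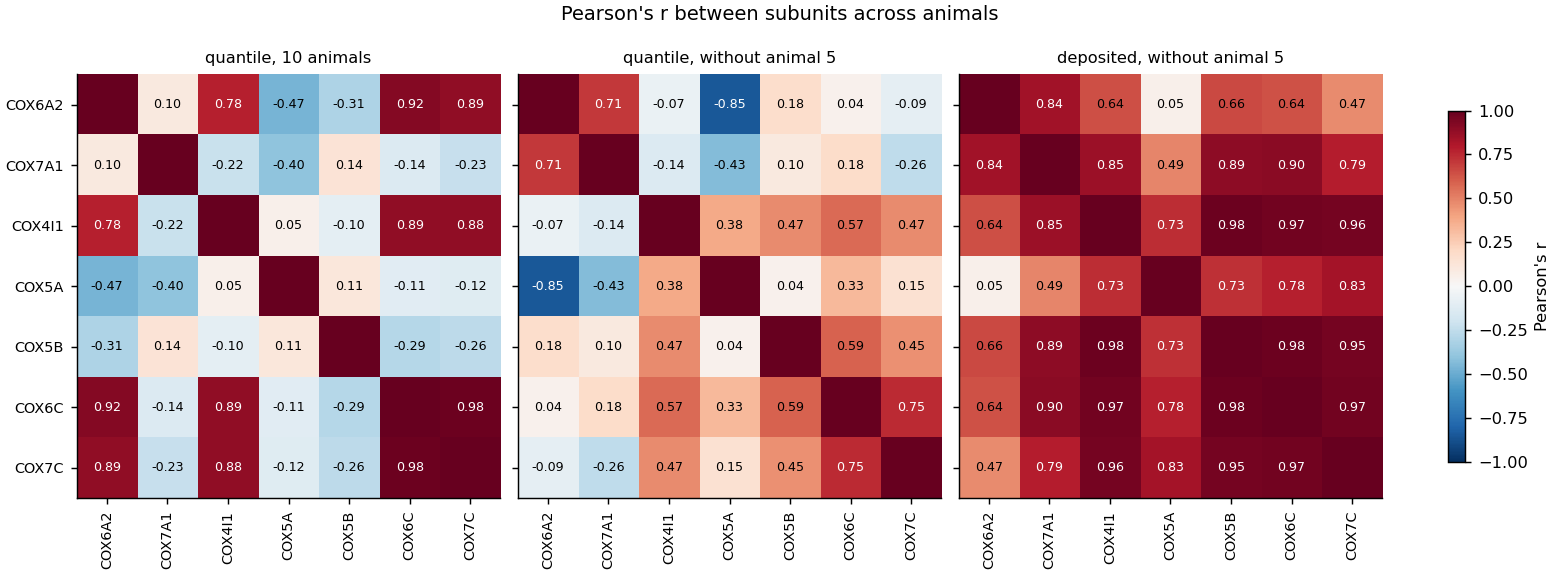
Pearson's r between the 7 members across animals, from -1 (blue) to 1 (red), for quantile normalized values in 10 animals, the same without animal 5, and the deposited scaling without animal 5. COX6A2, COX4I1, COX6C and COX7C have r from 0.78 to 0.98 in the first panel, and from -0.09 to 0.75 without animal 5; with the deposited scaling every pair is above 0.

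Of the liver isoforms of these subunits, COX6A1 was low in animal 5 and COX7A2 was not. COX6A1, the liver isoform of subunit 6A, was 8.61 in animal 5 against 10.04 to 10.95 in the other 9, and rose with COX6A2 (slope 0.54, limma adjusted p = 0.00874). Its value comes from the brighter of its probe sets; the other, with r = 0.45 to it, was also lowest in animal 5, at 8.78. Without animal 5 the slope of COX6A1 on COX6A2 was -0.0086 (limma adjusted p = 0.99).

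COX7A2, the liver isoform of subunit 7A, had the largest spread of the counterparts, with an SD of 0.71 (n = 10) and of 0.75 without animal 5. It was 12.63 in animal 6, 12.31 in animal 9, 12.27 in animal 4 and 11.94 in animal 7. It was 11.46 in animal 5, 11.30 in animal 3, 11.11 in animal 8, 10.88 in animal 1, 10.76 in animal 2 and 10.68 in animal 10. With quantile normalization animals 6 and 9, highest for COX7A2, were lowest for COX7A1. Animals 1 and 2 were high for COX7A1 and low for COX7A2, while animal 4 was high for both. With the deposited scaling COX7A1 was lowest in animal 2, at 14.22, and was 14.57 in animal 6 and 14.30 in animal 9. The order of the animals for COX7A1 thus depends on the scaling. The slope of COX7A2 on COX7A1 was -0.40 per SD (SE 0.17, limma adjusted p = 0.709), which did not pass. Among the 200 genes closest in level, 97% had a smaller SD.

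**Figure D4:**
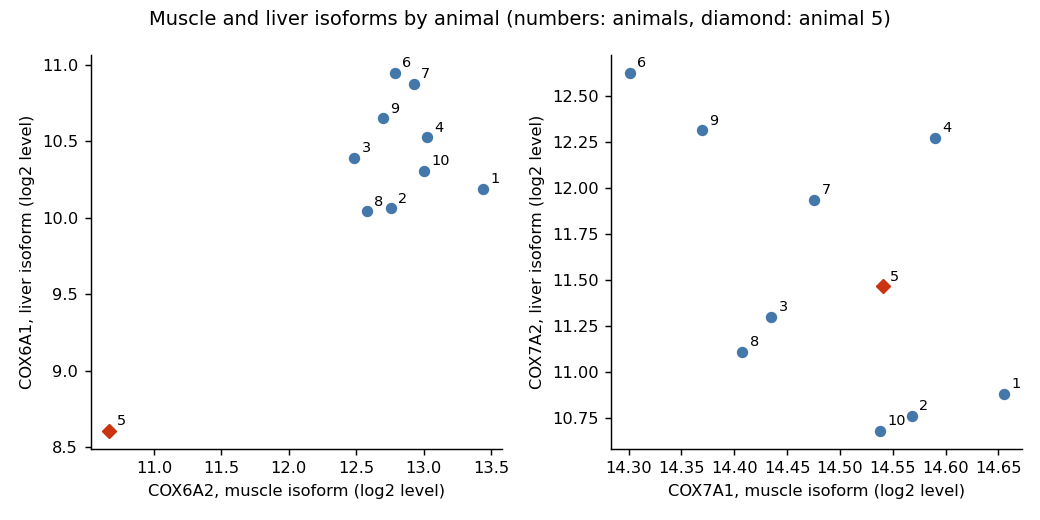
Log2 level of the liver isoform against the muscle isoform of subunit 6A (left) and subunit 7A (right) in 10 animals, numbered, with animal 5 as a red diamond. Animal 5 is low on both axes for subunit 6A. For subunit 7A it lies inside the other 9, and animals 6 and 9 combine the highest COX7A2 with the lowest COX7A1. Values are quantile normalized, and the order of the animals for COX7A1 differs with the deposited scaling.

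Of the other complex IV genes, COX8B, the muscle isoform of subunit 8 in cattle, was 12.08 in animal 5 against 13.22 to 14.01, and rose with COX6A2 (slope 0.53, limma adjusted p = 0.000443). Its second probe set was highest in animal 5, at 12.37 against 11.84 to 12.24 (r = -0.61 between them), so the direction for COX8B depends on the probe set. COX8A, its liver counterpart, was 9.49 against 10.39 to 10.92 and rose with COX6A2 (0.33, adjusted p = 0.0181 in limma). NDUFA4, once counted as a complex I subunit and found with complex IV in human cells, was 14.51 against 14.96 to 15.47 and rose as well (0.22, limma adjusted p = 0.00764). COX7A2L, a factor in the joining of complexes III and IV, was 9.40 against 9.56 to 10.24, with a slope of 0.14 (limma adjusted p = 0.332). COX6B2, the testis isoform of 6B in other mammals, was 7.61, inside a range of 7.21 to 8.40. Of the 7 counterparts 4 rose with COX6A2 and 0 fell, against 10.8% and 5.3% of all genes.

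Of 13 tested assembly factors, 4 were below the range of the other 9 in animal 5 and 4 above it. Over all tested genes these shares were 27.5% and 21%. With COX6A2 as covariate 3 of the 13 rose and 1 fell, against 10.8% and 5.3% of all genes. These counts are small and are not read as a trait of the list. COA3, which takes part in early assembly of the core, was 10.08 in animal 5 against 11.70 to 12.49 in the others (slope 0.62, limma adjusted p = 0.00101). COA1 (0.47) and COA4 (0.43) rose too, with limma adjusted p = 0.00152 and 0.00973. COX10, the enzyme that makes heme O on the way to heme A, fell (-0.40, limma adjusted p = 0.0192) and was highest in animal 5, at 11.33 against 9.64 to 10.47. HCCS, which attaches heme to cytochrome c, and the copper chaperone gene SCO1 were also above the range of the others there, at 11.69 and 10.41. The brightest of the list, CMC2, stood at a mean of 12.50, and in animal 5 was 0.33 below the mean of the others.

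Many genes of complexes I and III and of the ATP synthase were also low in animal 5, but those of complex II were not. SDHA, SDHB and SDHD were inside the range of the other 9, and SDHC was above it, at 14.15 against 13.46 to 13.87. Of 66 tested genes of complexes I, II, III and the ATP synthase, 40 (60.6%) were below the range of the other 9 in animal 5, 13 (19.7%) by more than 1 on the log2 scale, and 11 were above it. Over all tested genes 27.5% were below, 4.67% by more than 1, and 21% above. The median difference of animal 5 from the other 9 was -0.78 for complex I, -0.08 for complexes II and III, -0.80 for the ATP synthase, -0.04 for complex IV assembly factors and 0.41 for regulators of mitochondrial biogenesis, against -0.06 over all tested genes. With COX6A2 as covariate 10.8% of all genes rose and 5.3% fell, which stands beside each count that follows. In complex I, 20 of 36 genes rose with COX6A2 and 3 fell, with a median slope of 0.24 against 0.02 over all genes. NDUFS5 had the highest slope at 0.69 and was 11.18 in animal 5 against 13.09 to 13.73. NDUFC2 had the lowest at -0.25 and was 14.74 in animal 5, above 13.80 to 14.24, while the brightest, NDUFB8, was 0.01 below the mean of the others. In complexes II and III, 5 of 13 rose and 1 fell, from UQCRB at 0.26 to SDHC at -0.17. Of 17 ATP synthase genes 9 rose and 0 fell, with ATP5MC2 at 0.45. Of 10 regulators of mitochondrial biogenesis 0 rose and 2 fell, MEF2A, a muscle transcription factor gene, having the lowest slope at -0.37. Without animal 5, 0 genes of these lists passed in limma. No test set complex IV apart from the other complexes.

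**Figure D5:**
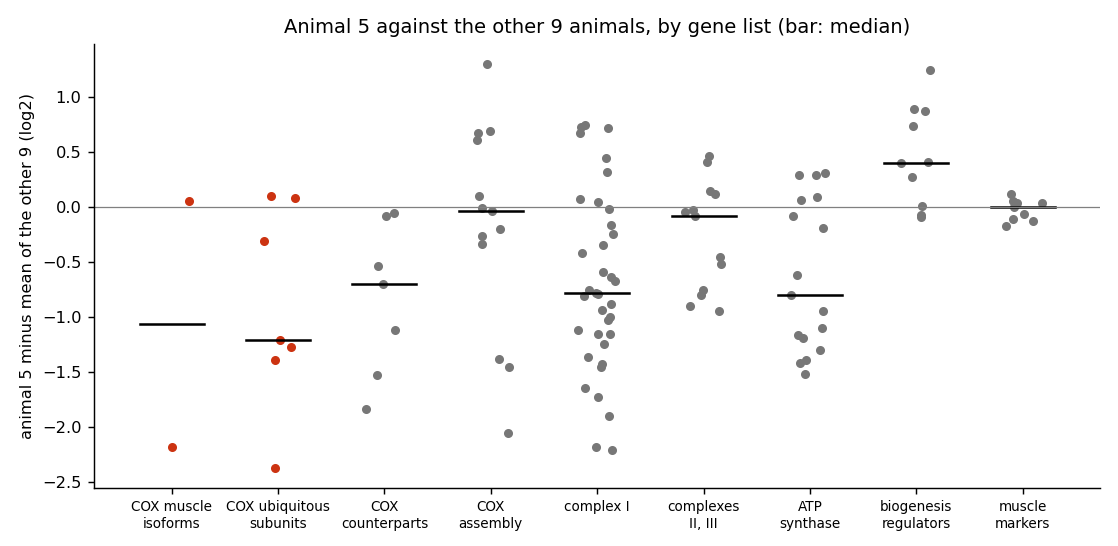
Animal 5 minus the mean of the other 9 animals on the log2 scale, 1 point per tested gene, with the median of each list as a black bar; complex IV muscle isoforms and ubiquitous subunits (COX7B and COX6B1 included) are red. COX6A2 and COX7A1 lie at -2.19 and 0.06. The COX counterparts all lie below 0, from -1.84 for COX6A1 to -0.05 for COX6B2. The assembly, complex I, complexes II and III, ATP synthase and biogenesis regulator lists spread over both sides of 0. Muscle markers lie within -0.17 to 0.12. All values are quantile normalized, which gives the brightest ranks the same values on every array.

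Markers of other cell types were set beside these values. In animal 5, 1 of 5 tested adipocyte genes, 2 of 6 fibroblast genes, 4 of 6 leukocyte genes, 0 of 4 endothelial genes and 2 of 4 liver plasma protein genes were below the range of the other 9. The summed log2 level of the leukocyte list was 40.92 in animal 5 against 42.28 to 51.16, that of the adipocyte list 38.25 against 38.15 to 52.08, that of the fibroblast list 61.10 against 58.17 to 73.21, that of the endothelial list 37.15 against 35.98 to 39.17, and that of the liver list 25.03 against 25.38 to 46.13. Over all tested genes 27.5% were below that range. The lowest difference within each list was that of FABP4 (-2.31) for adipocytes, DCN (-2.08) for fibroblasts, C1QA (-1.70) for leukocytes, CLDN5 (-0.29) for endothelium and HP (-3.53) for liver plasma proteins. FABP4, at 8.31 in animal 5, was inside the range of the others. The adipocyte gene below its range was CIDEA, at 5.59 in animal 5 against 7.34 to 8.27. Of all deposited values, 0 were equal to 0. The part of these markers in the low subunit values was not tested.

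Fat content is a beef trait, so the subunits were also set against an adipocyte marker score, the mean deviation of ADIPOQ, FABP4, CIDEC, CIDEA and LIPE. 0 of the 9 subunits passed (limma adjusted p from 0.6 to 0.967), with slopes from -0.07 for COX7A1 to 0.38 for COX7B, and 6 of 6266 genes rose (0.0958%), 0 fell and 555 had an unadjusted p below 0.05. A Spearman correlation per gene called 3. RNASE6 (1.24), G0S2 (1.15), C1QA (0.82), S100A11 (0.75) and SPARC (0.70) were the steepest, C1QA being also on the leukocyte list. The 6 genes were 0 without animal 9. Without animal 5, 3 of 6270 genes rose (0.0478%), 0 of the 9 subunits among them, and the subunit slopes lay between -0.07 and 0.05. COX7A2 had the steepest slope of the complex IV genes, at 0.55 (SE 0.14, adjusted p = 0.196) and, without animal 5, 0.64 (SE 0.12, adjusted p = 0.108); neither passed in limma.

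COX7A1 as covariate called 0 of 6270 genes in limma, with 422 at an unadjusted p below 0.05 and 0 by Spearman correlation, and 0 of 8 subunits passed. Without animal 4 it called 8. Without animal 5 it called 6 of 6274, of which 1 rose (0.0159%) and 5 fell (0.0797%). ASB11, a muscle ubiquitin ligase adaptor, rose by 0.36 per SD of COX7A1. The connective tissue genes FAP (-1.03), COL1A2 (-0.89), MGP (-0.87) and SERPINF1 (-0.60) and the retinoic acid synthesis gene ALDH1A1 (-0.77) fell, all with limma adjusted p = 0.0375. All 6 slopes kept their sign with the deposited scaling and with median centring, but none passed there, with adjusted p from 0.392 to 0.728. With the deposited scaling 31 genes passed, none of them among these 6, with a median level of 15.60; 1 of the 8 other subunits was among them, COX7B, with a slope of 0.45 (limma adjusted p = 0.0384).

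The genes most like each covariate were ranked by Pearson's r over all tested genes, as a description. Over 10 animals TRMU (0.989), EXOSC4 (0.972), NDUFA11 (0.965), PSENEN (0.964) and COX7B (0.964) were closest to COX6A2, and NDUFA11, a complex I subunit, was 9.60 in animal 5 against 11.59 to 12.10. Over the other 9 animals RBM14 (0.955), TRMU (0.943), PRG4 (0.934), IRX3 (0.920) and SLC12A4 (0.916) were closest. For COX7A1 the closest were PRPF4B (0.915), NAPG (0.893), GCN1 (0.854), ASB11 (0.852) and NHEJ1 (0.845) over 10 animals, and ASB11 (0.975), SLC30A5 (0.973), PRPF4B (0.947), NDUFS8 (0.918) and NAPG (0.916) over 9. For COX4I1 they were IDH1, TXN2, FECH, PRDX5 and BACE1 over 10 animals, with r from 0.930 to 0.937, and CHPT1, ZKSCAN5, MRPL15, KDSR and SDHB over 9, with r from 0.874 to 0.902. TRMU was shared by both COX6A2 rankings, and no gene by both COX4I1 rankings.

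The genes with the steepest slopes past the limma test on COX6A2 in 10 animals were C10H15orf48 (1.11), PDE4A (0.98), RPS9 (0.96), FRMD3 (0.92) and CLN3 (0.87) among those that rose. EGR1 (-1.31), FOS (-0.97), NR4A2 (-0.96), THNSL2 (-0.88) and PRKACB (-0.84) were the steepest of those that fell. EGR1, FOS and NR4A2 are early response genes. On COX4I1 the steepest were ADGRE5 (0.98), FRMD3 (0.95), MRPS18A (0.86), PLIN2 (0.84) and SERF2 (0.70), and NFIB (-0.69), TRIM2 (-0.65), FYN (-0.63), SGK1 (-0.58) and SLC25A25 (-0.58). On the poly(A) control difference they were EGR1, LOC515676, FOS, NR4A2 and SPATA24, from 0.80 to 1.30, and RNASE6, FRMD3, RPS9, DPM2 and MRPS18A, from -1.05 to -0.92.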

How the data were processed

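The authors deposited 1 linear intensity per probe set and array; no source used here gives the software. Their values share a scaling, the mean without the lowest and highest 2% being 500.2 on every array. All 10 columns were used. From these intensities log2(signal + 16) was computed and quantile normalized without the 112 control probe sets, since array medians spanned 0.24 on the log2 scale. Of 24016 other probe sets 13292 carried 1 symbol, 86 several and 10638 none listed. The brightest probe set stood for a gene, and genes above the median of all probe sets (6.98) were tested. Slopes came from limma (3.58.1, under R 4.3.3) with 1 covariate in SD units, Benjamini-Hochberg adjustment over all tested genes and a threshold of 0.05. The poly(A) measure averaged the dap, lys, phe and thr controls. The script was tested on simulated data. Members and gene lists were chosen with earlier results of these data known. Genes were named by rule: all subunits and counterparts, the 5 with the highest r, the 5 steepest per direction past each test, and the brightest and extreme members of each list.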

Additional observations from a re-analysis of the deposited data

Results flagged for a closer look

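In 17 of 35 series of 10 values that were checked, 1 animal lay apart from the others by a gap that was larger, as a share of the range, than Dixon's critical value for 10 samples, and in all 17 it was animal 5. About 1 in 20 series of independent values would pass by chance, but these series share the same 10 arrays and are not independent. The low values were COX6A2 at 10.67, COX4I1 at 14.24, COX6C at 13.46, COX7C at 13.35, COX7B (IHQ) at 12.51, COX6B1 (LOC338087) at 13.38, COX6A1 at 8.61, COX8A at 9.49, COX8B at 12.08, NDUFA4 at 14.51, COA1 at 9.66, COA3 at 10.08 and COA4 at 8.18. The high values were COX10 at 11.33 and HCCS at 11.69. The array measures, excesses of 3' over 5' signal, were 2.67 for the spiked-in transcripts and 0.70 for GAPDH. The part of these array measures in the subunit values was not tested. Beyond these series, animal 5 was below the range of the other 9 for 27.5% of all tested genes and above it for 21%. The share of all tested genes past Dixon's critical value was not computed.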

How the results depend on the processing

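Counts below are genes past the threshold with each covariate. COX6A2 (1007) gave 671 with median centring, 0 by Spearman correlation and 0 with the poly(A) difference as a second covariate. COX7A1 (0) gave 4 with that second covariate. COX4I1 (82) gave 161 with the deposited scaling, 215 with a filter at the 75th percentile, and 0 each with the mean of probe sets, no filter, Spearman correlation and the second covariate. The adipocyte score (6) gave 2 with median centring, 3 each with a pseudocount of 1, the mean of probe sets and Spearman correlation, and 0 with the stricter filter. The poly(A) difference (1057) gave 0 by Spearman correlation. Leaving out each animal gave 0 to 1060 for COX6A2, 0 to 8 for COX7A1, 0 to 349 for COX4I1, 0 to 5 for the adipocyte score and 0 to 1152 for the poly(A) difference. The cause of these changes was not tested.

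Settings without animal 5 combined with another choice were added after seeing the data. COX6A2 then gave 0 with the deposited scaling, 0 with median centring and 3 by Spearman correlation. COX7A1 gave 31 with the deposited scaling and 1 by Spearman correlation. COX4I1 gave 0 with median centring and 0 by Spearman correlation. Its count with the deposited scaling is not given here. In that setting the r of COX4I1 with the other members ran from 0.64 (COX6A2) to 0.98 (COX5B). Those arrays differ in the signal of all bright probe sets. The adipocyte score gave 3 with median centring and 2 by Spearman correlation. The poly(A) difference gave 0 in all of these settings.

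SDs were 0.27 for COX4I1, 0.31 for COX5B and 0.25 for COX7A1 with the deposited scaling, and 0.25 for COX5B with median centring. The slope of COX5A on COX6A2 turned to 0.037 with the deposited scaling and 0.0087 with it and without animal 5. Slopes on the poly(A) difference without animal 5 turned to 0.23 for COX6A2, 0.20 for COX6C and 0.21 for COX7C with the deposited scaling, and 0.18, 0.16 and 0.17 with median centring. Leaving out each animal, slopes on COX6A2 ran from -0.011 to 0.41 for COX7C, from -0.0043 to 0.099 for COX4I1 and from -0.012 to 0.080 for COX7A1. The slope of COX6A2 on COX4I1 ran from -0.020 to 0.65. Slopes on the poly(A) difference ran from -0.72 to 0.19 for COX6A2, from -0.46 to 0.038 for COX6C and from -0.42 to 0.067 for COX7C. With the mean of probe sets the COX6C slope on COX6A2 was 0.17 (limma adjusted p = 0.507). No paired analysis was possible because all samples form 1 group.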

Other observations

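Animal 5 was not the only animal with genes below the range of all others, but it had by far the most. It was below by more than 1 on the log2 scale for 293 of 6271 tested genes and above by as much for 58. The next highest counts below were 43 in animal 10, 35 in animal 6 and 27 in animal 1.

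COX6C had a second, dim probe set with a mean of 6.69, an SD of 1.02 and r = -0.02 with the bright one. It was lowest in animal 10 at 4.31 and stood at 6.87 in animal 5, so it did not carry the low value of the bright probe set.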
